A study of Mus musculus with 21 samples.

Results

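Paneth cells are secretory cells at the base of the small intestinal crypt, and the antimicrobial genes described here are those of 10 of their secreted products or the enzymes that act on them. The 10 genes were Lyz1, Lyz2, Ang4, Itln1, Mptx1, Pla2g2a, Mmp7, Defa3, Defa31 and Defa39. They were read through every probe set of the array whose annotation gave 1 of these symbols and no other, which were 13 of the 34958 probe sets with 1 gene symbol. Lyz1 had 3 probe sets, Ang4 had 2 and each of the other genes had 1. RNA came from mouse small intestine. Cells labelled with TdTomato, the red fluorescent protein that stood for Mist1 here, were sorted into 2 fractions by the surface protein CD24, named CD24lo and CD24hi. Mist1 is a transcription factor of secretory cells. Each fraction had 5 conditions with 2 arrays each. These were untreated mice, mice with Lgr5-expressing cells ablated, a group that received 10 Gy of irradiation, a group treated with the DNA-damaging drug doxorubicin, and a group labelled as expressing NICD, the usual name for the intracellular domain of Notch. The titles of the Lgr5-ablated samples read DT, and no group with DT alone was analysed here, so an effect of the agent and an effect of the ablation cannot be told apart. The labels give no strain, age, sex, time after treatment, doxorubicin dose, Cre driver or reporter allele. Beside these 20 arrays, 1 array of whole intestine, with the cell type given as villi, was described and not tested. Nothing in the labels says that replicates were separate animals, so a p-value measures only the spread between these samples.

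Paneth cells store their antimicrobial products in granules and release them into the crypt. Lysozymes cut the peptidoglycan of bacterial cell walls. Alpha-defensins, called cryptdins in mice, are small peptides that disrupt bacterial membranes and are made as inactive precursors, which the protease matrilysin, the product of Mmp7, cleaves into the active form. Pla2g2a encodes a secreted phospholipase that attacks bacterial membrane lipids, Ang4 a ribonuclease of the angiogenin family with bactericidal activity, Itln1 a lectin that binds microbial sugars, and Mptx1 a mucosal pentraxin. Wnt signalling, which acts on target genes through TCF/LEF factors, is known to be active in Paneth cells and to be needed for their maturation.

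Several of the genes lie close together. In the RefSeq annotation of GRCm38.p6, Lyz2 (chr10:117277541-117282272) and Lyz1 (chr10:117287795-117292868) are neighbours with 5522 bases between them, and the 3 alpha-defensin genes lie within 512075 bases of chromosome 8, Defa31 at chr8:21191573-21192550, Defa3 at chr8:21287409-21288377 and Defa39 at chr8:21702524-21703647. Mmp7 lies at chr9:7692090-7699585, Ang4 at chr14:51763892-51773590, Itln1 at chr1:171518123-171535325 and Mptx1 at chr1:174330518-174332877. Pla2g2a lies at chr4:138831857-138835189 and is annotated there as a transcribed pseudogene in the reference strain. Coordinates of the probe sets themselves were not used here.

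The promoters of both lysozyme genes are shown because the genes are neighbouring copies that were read by different probe sets and gave different values below. Each run covers 150 bases before the transcription start and 20 from it on, on the minus strand of GRCm38.p6 from RefSeq, at chr10:117292849-117293018 for Lyz1 and chr10:117282253-117282422 for Lyz2. Capitals mark the bases that differ between them when compared position by position from the transcription start, without alignment.
Lyz1: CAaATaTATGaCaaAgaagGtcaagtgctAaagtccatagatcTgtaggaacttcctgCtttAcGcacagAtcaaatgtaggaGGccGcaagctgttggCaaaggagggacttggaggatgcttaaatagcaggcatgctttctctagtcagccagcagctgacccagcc
Lyz2: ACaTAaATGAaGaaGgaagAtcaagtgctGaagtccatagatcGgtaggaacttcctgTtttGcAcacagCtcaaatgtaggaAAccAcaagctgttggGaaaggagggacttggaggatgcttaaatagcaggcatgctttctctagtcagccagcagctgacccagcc
Of these 170 bases, 149 (87.6%) were identical, and the last 70 were identical throughout. Over the whole 300 bases of the promoter entries, 201 (67.0%) were identical by the same count. Since no alignment was made, an inserted or missing base would make matching bases beyond it count as different.

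The promoters of Mmp7 (chr9:7691940-7692109) and Defa31 (chr8:21191423-21191592), both on the plus strand, are shown for the letters ATCAAAG, the core that TCF/LEF factors are known to bind, in capitals. Mmp7 is the defensin-processing enzyme whose signal fell in CD24lo cells after doxorubicin, and Defa31 was the 1 alpha-defensin of the 3 with a promoter entry.
Mmp7: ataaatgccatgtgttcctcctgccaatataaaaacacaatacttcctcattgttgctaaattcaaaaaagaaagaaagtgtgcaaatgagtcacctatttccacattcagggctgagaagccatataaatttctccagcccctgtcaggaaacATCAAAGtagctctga
Defa31: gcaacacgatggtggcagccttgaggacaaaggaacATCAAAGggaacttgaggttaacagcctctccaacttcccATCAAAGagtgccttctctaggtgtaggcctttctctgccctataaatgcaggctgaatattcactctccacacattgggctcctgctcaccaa
The letters begin at base 5 after the start in Mmp7, and at bases -114 and -74 from it in Defa31. On either strand ATCAAAG stood in 2.09% of the 32851 promoter windows of this length, and its matches in these promoters did not overlap those of TATAAA, which stood in 8.1% of windows. A match is a run of letters and not a bound site. Promoter entries were found for 7 of the 10 genes. The start in the Itln1 entry did not match the outer end of the annotated gene, so Itln1 was not searched. On either strand the windows of Mptx1, Lyz1, Lyz2 and Ang4 held 0 matches to ATCAAAG.

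The values were MAS5 signals, a linear measure of brightness that had been scaled to the same trimmed mean of 500 on every array. Sorted arrays had median signals of 101 to 158. Of the 13 probe sets, those of Defa3 and Defa31 were near that level. Defa3 was below the array's median on 8 arrays and Defa31 on 5, so neither was separated from the dim probe sets of the array. The brighter Lyz1 probe sets, by contrast, lay above the 99th percentile of the array on all 20 sorted arrays, as did Itln1 and the Ang4 probe set 1438364_x_at on 19 arrays, Ang4 1440832_at and Mmp7 on 18, and Defa39 on 13. Near the top of the scale a further increase may be compressed. On the second CD24hi NICD array the mean of the 50 brightest other probe sets was 38203, against 14917 to 26237 on the other 19, and the signal of Lyz1 there was 46612. The averages over conditions and every difference with CD24hi NICD rest on that array in part, and some of their values without it are given below. Where an array was left out and its group kept 1 array, that array was assumed to vary like those of the other groups.

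**Figure D1:**
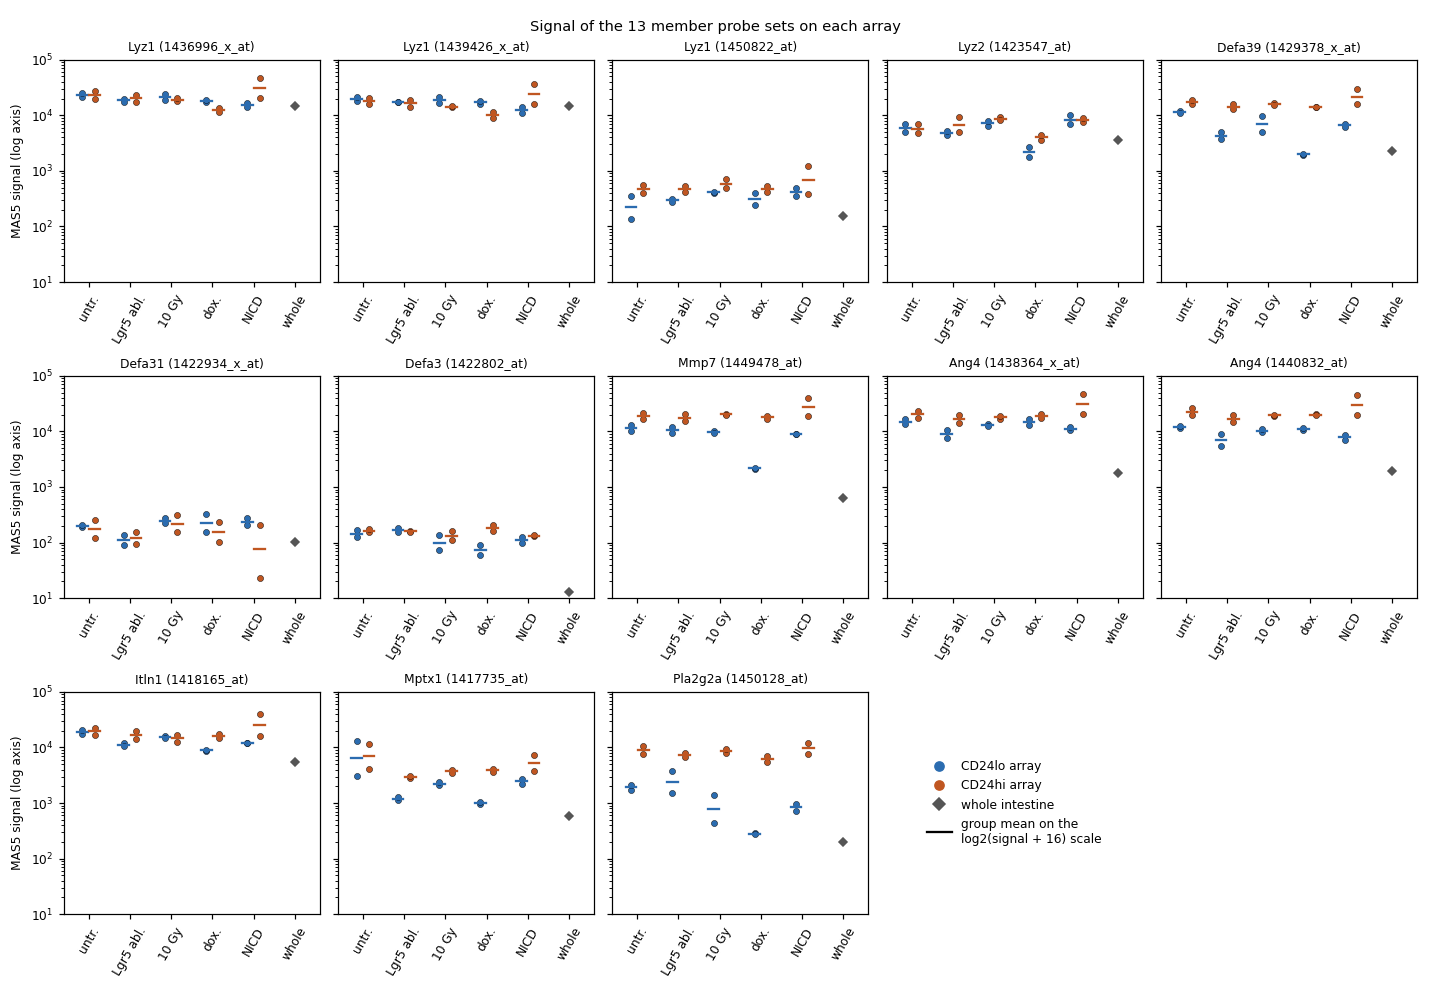
Signal of each of the 13 probe sets on a log axis for every array, by condition (untr., untreated; dox., doxorubicin; 10 Gy, irradiated). Blue points are CD24lo arrays, orange points CD24hi arrays, bars group means and grey diamonds whole intestine; Defa3 and Defa31 sit low, and Pla2g2a, Mmp7 and Defa39 are lowest among sorted groups in CD24lo cells given doxorubicin.

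The next comparison asked how the 2 fractions differed. In the average of the 5 conditions (10 arrays a fraction), 9 of the 13 probe sets were higher in CD24hi cells and 0 lower, which covered 8 of the 10 genes. Pla2g2a, Defa39 and Mmp7 differed most. Among all 22531 probe sets tested 25.8% were called higher and 43.3% called in either direction, so being called was common here. The median difference of the 13 was 0.69 on the log2(signal + 16) scale, against 0.07 over all probe sets. CD24 is itself abundant on Paneth cells, so the fractions were made with a gene that such cells express. In RNA of many cells, fewer cells of a type and less RNA of a gene per cell cannot be told apart.

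Markers of other cell types differed between the fractions too. In the same average, all 12 enterocyte probe sets were lower in CD24hi cells, with a median of -1.45, and 6 of 12 goblet cell probe sets were lower and 0 higher (median -0.62). All 11 stem cell probe sets tested (median 1.33) and all 13 tuft cell probe sets tested (median 2.25) were higher. In untreated mice the summed signal was 80354 to 92149 in CD24lo and 19023 to 25505 in CD24hi cells for enterocyte markers, and 117949 to 147258 and 64537 to 88962 for goblet markers. It was 13609 to 15707 and 32133 to 35334 for stem cell markers, and 411 to 626 and 2015 to 3211 for tuft cell markers. The part of these cells in the differences of the 13 probe sets was not tested.

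Without CD24hi NICD replicate 2 the average of Defa3 was 0.364, against 0.367 with both arrays. The averages were then 2.95 for Pla2g2a, 1.53 for Defa39, 1.33 for Mmp7, 1.06 for Ang4 1440832_at and 0.61 for Ang4 1438364_x_at. They were 0.93 for Mptx1, 0.53 for Lyz1 1450822_at and 0.36 for Itln1.

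Pla2g2a, the membrane-lipid phospholipase, showed the largest difference of the 13. Its signal in untreated mice was 1722 and 2141 in CD24lo cells and 7515 and 10639 in CD24hi cells. In doxorubicin-treated mice it was 287 and 276 in CD24lo cells against 6941 and 5509 in CD24hi cells. The lowest of the 10 CD24hi arrays was above the highest of the 10 CD24lo arrays, 3801, which was a Lgr5-ablated one. The average difference was 3.02 ± 0.19 (SE; adjusted p = 1.27e-09, limma with Benjamini-Hochberg adjustment), and the fold was lowest in Lgr5-ablated mice and ran from 4.63 in untreated through 10.6 in irradiated and 11.4 in NICD mice (9.09 without CD24hi NICD replicate 2) to 20.8 after doxorubicin. Among the 10 groups the 5 CD24hi groups came first, and no neighbours among these 5 were separated beyond their arrays.

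Mmp7 and Defa39, the processing enzyme and an alpha-defensin, also had no overlap between the fractions over the 20 arrays. Mmp7 read 10138 and 12916 in untreated CD24lo cells and 16507 and 21495 in untreated CD24hi cells. Over all conditions it ran from 2130 to 12916 in the CD24lo arrays and from 15203 to 39594 in the CD24hi arrays. The average difference of Mmp7 was 1.43 ± 0.11 (adjusted p = 2.09e-08). Defa39 read 11990 and 10932 in untreated CD24lo cells and 16198 and 18570 in untreated CD24hi cells, with an average difference of 1.62 ± 0.12 (adjusted p = 1.00e-08). Its probe set is of the x type (a name ending in x_at), whose probes can match related sequences, so its signal may hold that of other alpha-defensins.

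The other alpha-defensin probe sets did not all follow Defa39. Defa3 read 126 and 166 in untreated CD24lo cells and 152 and 177 in untreated CD24hi cells, an overlap. Its average difference was 0.37 ± 0.14 (adjusted p = 0.0433), and the call was lost without any of 13 arrays, with adjusted p from 0.0508 to 0.103. These were both CD24hi arrays of the untreated, Lgr5-ablated and NICD groups, replicate 2 of CD24hi doxorubicin and CD24hi irradiated, replicate 2 of CD24lo Lgr5-ablated and CD24lo irradiated, and replicate 1 of CD24lo NICD, CD24lo doxorubicin and CD24lo untreated. It was also lost with quantile normalization (adjusted p = 0.162), 75th percentile centring (0.0923), centring on the 50 brightest other probe sets (0.191) and no filter (0.0721). Defa31 differed by -0.43 ± 0.27 (adjusted p = 0.22). Its average was -0.68 without CD24hi NICD replicate 1 and -0.17 without CD24hi NICD replicate 2. Within NICD mice Defa31 differed by -1.42 with both CD24hi arrays and by -0.16 without replicate 2.

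A further 2 probe sets named several alpha-defensins and so were no part of the 13. They were tested in an added fit on 23153 probe sets. That fit was not repeated with any array left out or with any other setting. The probe set annotated to Defa22 and Defa21 read 2632 and 3007 in untreated CD24lo cells and 10787 and 14853 in untreated CD24hi cells, and its average difference was 3.69 ± 0.16 (adjusted p = 3.71e-11). The probe set annotated to Defa30 and Defa24, again of the x type, went the other way. It read 8023 and 10277 in untreated CD24lo cells and 4378 and 5398 in untreated CD24hi cells, with an average difference of -0.78 ± 0.13 (adjusted p = 0.00011). Probe sets of this multigene family therefore had opposite signs between the fractions, and which defensin gene gave each signal was not resolved by the table.

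**Figure D2:**
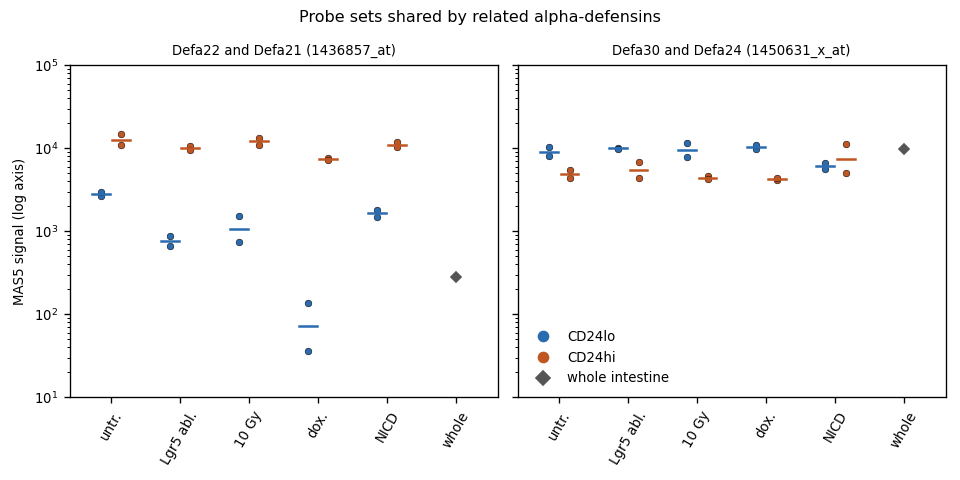
Signal on a log axis of the probe sets annotated to Defa22 and Defa21 (left) and to Defa30 and Defa24 (right) on each array, by condition, with CD24lo in blue, CD24hi in orange, bars for group means on the log2(signal + 16) scale and whole intestine as a diamond. The left probe set is higher in CD24hi cells in every condition and falls to 36 and 136 in CD24lo cells after doxorubicin. The right one has the higher mean in CD24lo cells in every condition but NICD. There its arrays overlap, at 4971 and 11160 in CD24hi cells and 5609 and 6695 in CD24lo cells.

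Ang4, the ribonuclease, was higher in CD24hi cells by both of its probe sets. Ang4 1440832_at read 11409 and 12266 in untreated CD24lo cells and 19925 and 25981 in untreated CD24hi cells. It did not overlap between the fractions over the 20 arrays, with an average difference of 1.18 ± 0.13 (adjusted p = 1.17e-06). Ang4 1438364_x_at gave 0.73 ± 0.13 (adjusted p = 0.000176), with CD24hi above CD24lo in each of the 5 conditions. Its fractions overlapped only across conditions. Both correlated at 0.946 over the 20 arrays, a description in which depth of signal and scaling are shared.

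Itln1, the lectin, and Mptx1, the pentraxin, differed less evenly. Itln1 read 17454 and 21047 in untreated CD24lo cells and 16847 and 22632 in untreated CD24hi cells, which overlapped. Its average difference was 0.49 ± 0.13 (adjusted p = 0.00592), and by condition it ran from -0.05 in irradiated to 1.05 in NICD mice (0.39 there without CD24hi NICD replicate 2). Mptx1 was 13247 and 3070 in untreated CD24lo cells and 11506 and 4111 in untreated CD24hi cells, so that replicates of the same group were further apart than the fractions. In every treated condition its CD24hi arrays were above its CD24lo arrays, and the average difference was 1.02 ± 0.22 (adjusted p = 0.00113).

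The lysozymes gave different values by probe set. Lyz1 1436996_x_at read 21069 and 24827 in untreated CD24lo cells and 19657 and 27664 in untreated CD24hi cells. Its average difference was 0.09 ± 0.12, with a 95% interval of -0.17 to 0.35, and the other bright Lyz1 probe set, 1439426_x_at, gave -0.09 (interval -0.34 to 0.17). These averages hold conditions of opposite sign. Lyz1 1436996_x_at differed by -0.55 after doxorubicin, with both CD24hi arrays lower, and by 1.005 with NICD, with both higher. For 1439426_x_at the differences were -0.77 and 0.95. Without CD24hi NICD replicate 2 the NICD differences were 0.40 and 0.38 and the averages -0.03 and -0.20. The intervals of the averages leave out a difference of the size seen for Mmp7 or Ang4 1440832_at on this scale, but both probe sets were near the top of the scale on every array. The dimmer probe set Lyz1 1450822_at, at 136 to 1213, was higher by 0.69 ± 0.20 (adjusted p = 0.00869). Probe sets of this gene therefore disagreed, and the dim one correlated with the bright ones at 0.229 and 0.065 over the 20 arrays, while the bright ones correlated at 0.959 with each other. Lyz2 differed by 0.30 ± 0.13 (adjusted p = 0.0596), and by condition from -0.04 in untreated mice to 0.86 after doxorubicin, where both CD24hi arrays were higher. It passed the threshold, with differences of 0.35 to 0.39 and adjusted p from 0.0111 to 0.0432, without any of CD24hi Lgr5-ablated replicate 1, CD24hi untreated replicate 2, or replicate 1 of CD24lo NICD, CD24lo doxorubicin or CD24lo untreated.

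In untreated mice alone, with 2 arrays per fraction, 2 of the 13 probe sets passed, both higher, and 7.02% of all probe sets were called higher (12.4% in either direction). Pla2g2a was higher by 2.21 ± 0.42 (adjusted p = 0.00216) and Ang4 1440832_at by 0.94 ± 0.29 (adjusted p = 0.0393). Without any 1 of the 4 arrays the Ang4 call was lost, with adjusted p = 0.231 and 0.0677 without CD24hi untreated replicate 2 and 1, and 0.17 and 0.0953 without CD24lo untreated replicate 1 and 2. Mmp7 differed by 0.72 ± 0.25 (adjusted p = 0.0686) and Defa39 by 0.60 ± 0.26 (adjusted p = 0.153), both without overlap of the arrays. Mmp7 was called after quantile normalization (0.80, adjusted p = 0.00131) and with centring on the 50 brightest other probe sets (0.79, adjusted p = 0.0331), and Ang4 1438364_x_at, at 0.44 ± 0.29, after quantile normalization (0.52, adjusted p = 0.0406). Lyz1 1450822_at passed without CD24lo untreated replicate 1, at 1.68 (adjusted p = 0.0492).

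**Figure D3:**
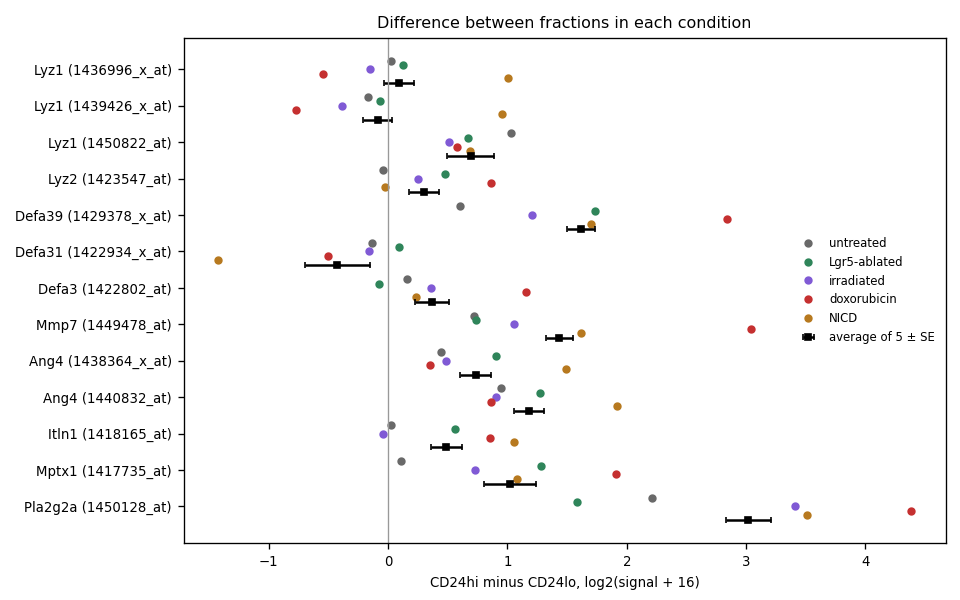
Difference between CD24hi and CD24lo cells on the log2(signal + 16) scale for each of the 13 probe sets, with a coloured point for each condition (difference of 2 group means of 2 arrays) and a black square for the average over the 5 conditions with its standard error. Pla2g2a lies furthest to the right at an average of 3.02, and the bright Lyz1 probe sets lie around 0.

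Among the 4 treatments, doxorubicin in CD24lo cells gave the most calls of these genes. There 6 of the 13 probe sets fell and 0 rose, whereas 7.43% of all probe sets fell and 5.01% rose, 12.4% in all. The genes that fell were Pla2g2a, Mptx1, Defa39, Mmp7, Lyz2 and Itln1. The median difference of the 13 was -0.85, against -0.02 over all probe sets. All treatments of a fraction are set against the same 2 untreated arrays.

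Mmp7 was 10138 and 12916 in untreated and 2130 and 2206 in doxorubicin-treated CD24lo cells. The groups did not overlap, and Mmp7 was 5.25-fold lower after doxorubicin, a difference of -2.39 ± 0.25 (adjusted p = 6.15e-05). Defa39 went from 11990 and 10932 to 1951 and 2039, also without overlap, which was -2.51 ± 0.26 (5.70-fold lower; adjusted p = 6.15e-05). Pla2g2a went from 1722 and 2141 to 287 and 276, a fall of similar size with non-overlapping arrays, at -2.70 ± 0.42 (6.51-fold lower; adjusted p = 0.00123).

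Mptx1 was 973 and 1065 after doxorubicin, below both untreated arrays at 13247 and 3070. The difference was -2.63 ± 0.49 (adjusted p = 0.00363), and its size depends on the distance between those untreated arrays. The calls of Mmp7, Defa39, Pla2g2a and Mptx1 in this comparison were kept in every alternative tried.

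Lyz2, the lysozyme that macrophages are known for, was 6923 and 5083 in untreated and 2718 and 1764 in doxorubicin-treated CD24lo cells. The groups did not overlap, with -1.43 ± 0.28 (adjusted p = 0.00478), and the call was lost without CD24lo doxorubicin replicate 2, at -1.12 (adjusted p = 0.0676). Of 20 probe sets of 12 macrophage and monocyte markers, 10 were below the array's median on all 20 arrays. Among them was every probe set of C1qb, C1qc, Adgre1, Cx3cr1 and Fcgr1. Others were brighter. Cd68, at 182 to 957, was below the median on 0 arrays, and Mpeg1, at up to 2521, on 9. The Cybb probe sets, at up to 1014, were below it on 14 to 15 arrays. The summed signal of the 20 probe sets was 1048 to 2580 in untreated and 949 to 1343 in doxorubicin-treated CD24lo cells, against 9816 in whole intestine. Of the 7 that could be tested 2 fell, Cd14, a receptor for bacterial lipopolysaccharide, by 2.43 (adjusted p = 0.000596) and Cd68, a lysosomal protein of macrophages, by 0.99 (adjusted p = 0.0479). Of the neutrophil markers all 5 probe sets were below the array's median on all 20 arrays. The part of such cells in the Lyz2 signal was not tested.

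Itln1 was 17454 and 21047 in untreated and 8769 and 9183 in treated CD24lo cells, again without overlap. The difference was -1.09 ± 0.29 (adjusted p = 0.0227). It missed the threshold without CD24lo untreated replicate 2 (-0.96, adjusted p = 0.15), CD24lo doxorubicin replicate 1 (-1.06, adjusted p = 0.128) or replicate 2 (-1.13, adjusted p = 0.0939).

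Ang4 and Lyz1 did not pass in this comparison. Ang4 1438364_x_at was 13660 and 16525 in untreated and 13144 and 16468 in treated CD24lo cells, which overlapped, with a difference of -0.03 and a 95% interval of -0.63 to 0.57. Ang4 1440832_at gave -0.11 (interval -0.71 to 0.50). Lyz1 1436996_x_at was 21069 and 24827 in untreated and 17551 and 19091 in treated cells, a difference of -0.32 (interval -0.90 to 0.26, adjusted p = 0.471). After quantile normalization this Lyz1 probe set was called lower (-0.54, adjusted p = 0.0305; range over its alternatives 0.0305 to 0.783). The dim probe sets gave -0.85 ± 0.31 for Defa3 (adjusted p = 0.0845), 0.21 ± 0.61 for Defa31 and 0.47 ± 0.44 for Lyz1 1450822_at. Defa3 was called after quantile normalization at -1.17 (adjusted p = 0.033; range over its alternatives 0.033 to 0.417).

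The probe set annotated to Defa22 and Defa21 showed the widest change of any defensin probe set here. It went from 2632 and 3007 in untreated to 36 and 136 in doxorubicin-treated CD24lo cells, and with it the lower values lay at the dim end of the array. The difference was -4.99 ± 0.37 (adjusted p = 1.23e-06). The probe set annotated to Defa30 and Defa24 was 9912 and 11053 after doxorubicin, against 8023 and 10277, and differed by 0.21 ± 0.29 (adjusted p = 0.685).

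In CD24hi cells doxorubicin gave 0 calls among the 13 probe sets by limma, with 2 at an unadjusted p under 0.05. Of all probe sets 0.888% were called in either direction. Those 2 were the bright Lyz1 probe sets. Lyz1 1436996_x_at was 19657 and 27664 in untreated and 13467 and 11681 in treated CD24hi cells, without overlap (-0.89 ± 0.28, adjusted p = 0.175), and 1439426_x_at gave -0.83 ± 0.27 (adjusted p = 0.206). After quantile normalization both were called, at -0.93 (adjusted p = 0.00583) and -0.88 (adjusted p = 0.00767). With centring on the 50 brightest other probe sets 1436996_x_at was called too, at -0.96 (adjusted p = 0.0376). Mmp7 was 16507 and 21495 in untreated and 19221 and 16808 in treated CD24hi cells, an overlap, and Defa39 and Pla2g2a differed by -0.27 ± 0.26 and -0.53 ± 0.42.

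The difference between the fractions in the effect of doxorubicin was tested directly. Mmp7 passed, with 2.32 ± 0.35 (adjusted p = 0.0441), in a test that called 0.00888% of all probe sets. The call was lost without any 1 of the 8 arrays it rests on, namely both replicates of the untreated and of the doxorubicin group in each fraction, with values from 2.13 to 2.52 and adjusted p from 0.0658 to 0.33. Defa39 gave 2.24 ± 0.37 (adjusted p = 0.0549) and Pla2g2a 2.17 ± 0.59 (adjusted p = 0.216). In the added fit the probe set of Defa22 and Defa21 gave 4.24 ± 0.52 (adjusted p = 0.00529). Mmp7 lay above the 99th percentile of the array on 18 of the 20 sorted arrays. The part of compressed signal in its difference was not tested.

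Markers of other cells moved beside these changes. The summed signal of 12 enterocyte probe sets was 80354 to 92149 in untreated and 157812 to 185741 in doxorubicin-treated CD24lo cells, and 4 of the 12 rose. In CD24hi cells it was 19023 to 25505 and 62595 to 63107, and 6 of the 12 rose. The sum of 13 stem cell probe sets was 13609 to 15707 in untreated and 2415 to 2727 in treated CD24lo cells, and 5 of the 11 tested fell. In CD24hi cells it was 32133 to 35334 and 19214 to 19763, and 1 of the 11 fell. Of the 7 T cell probe sets that could be tested 2 rose in CD24lo cells, where the sum of all 11 was 237 to 1336 in untreated and 1906 to 2159 in treated mice, and 0 in CD24hi cells. Of the goblet cell probe sets 1 of 12 rose in CD24lo and 4 of 12 in CD24hi cells, with sums of 117949 to 147258 and 128609 to 146719 in untreated and treated CD24lo cells. No enterocyte or goblet probe set was below the array's median in these CD24lo groups. The part of these cells in the differences of the 13 probe sets was not tested.

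**Figure D4:**
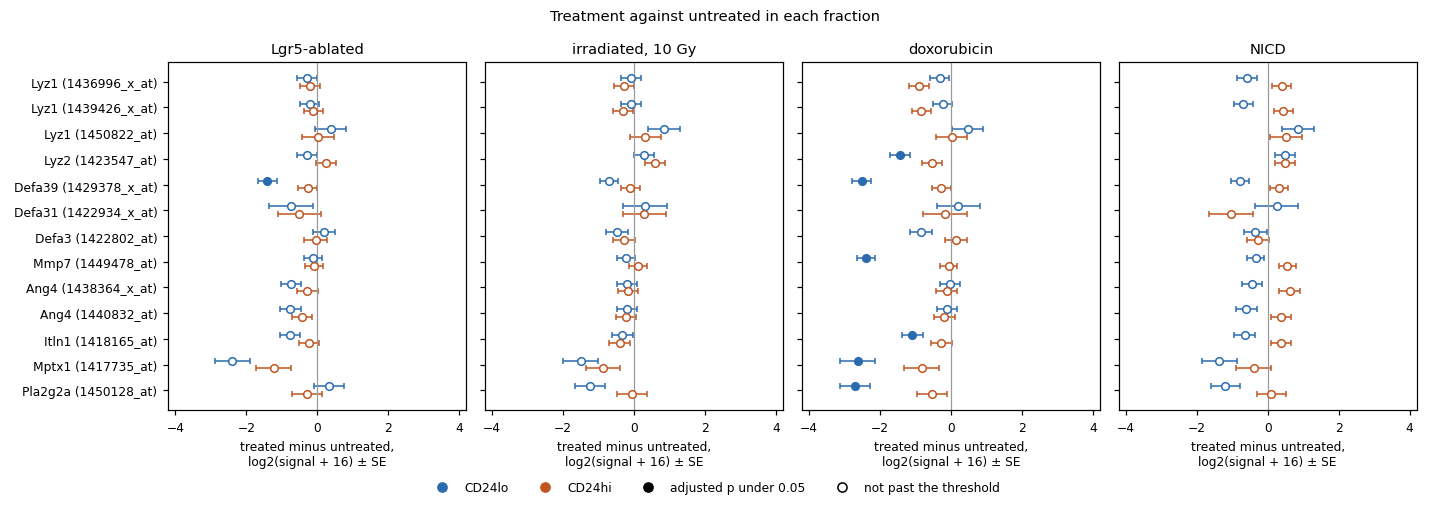
Difference from untreated cells of the same fraction, on the log2(signal + 16) scale with its standard error, for the 13 probe sets under each of the 4 treatments (blue CD24lo, orange CD24hi, 2 arrays per group). Filled points passed an adjusted p of 0.05; these are 6 probe sets after doxorubicin and Defa39 after Lgr5 ablation, all in CD24lo cells and all lower.

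After Lgr5 ablation 1 of the 13 probe sets passed in CD24lo cells, where 0.213% of all probe sets were called in either direction and 0.107% lower. Defa39 was 11990 and 10932 in untreated and 3763 and 4924 in Lgr5-ablated CD24lo cells, without overlap. The difference was -1.41 ± 0.26 (adjusted p = 0.0301). Without CD24lo Lgr5-ablated replicate 1 or 2, or CD24lo untreated replicate 1 or 2, the call was lost, with adjusted p = 0.167, 0.0621, 0.22 and 0.146. With centring on the 50 brightest other probe sets, which moved the median of all probe sets from 0.00 to 0.27, it was -1.14 (adjusted p = 0.331). Mptx1 was 1123 and 1275 in Lgr5-ablated cells, below both untreated arrays, at -2.40 ± 0.49 (adjusted p = 0.0573). The probe set of Defa22 and Defa21 was 672 and 876, which gave -1.85 ± 0.37 in the added fit (adjusted p = 0.0444). Whether this call holds under the alternatives was not tested. Mmp7 and Pla2g2a differed by -0.12 ± 0.25 and 0.33 ± 0.42, and their arrays overlapped. In CD24hi cells 0 of the 13 were called by limma and 1 had an unadjusted p under 0.05, with 0.621% of all probe sets called.

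After irradiation 0 of the 13 probe sets passed in either fraction by limma. In CD24lo cells 3 had an unadjusted p under 0.05 and 3.91% of all probe sets were called, and in CD24hi cells 0 and 3.74%. Pla2g2a was 444 and 1419 in irradiated CD24lo cells, below the untreated 1722 and 2141 (-1.25 ± 0.42, adjusted p = 0.1). Defa39 was 5104 and 9540, also below both untreated arrays (-0.71 ± 0.26, adjusted p = 0.134). Without CD24lo irradiated replicate 2 both passed, at -2.07 (adjusted p = 0.0177) and -1.16 (adjusted p = 0.0468). The probe set of Defa22 and Defa21 was 750 and 1521, which gave -1.38 ± 0.37 in the added fit (adjusted p = 0.0432). Alternatives were not run for this call.

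With NICD 0 of the 13 probe sets passed in CD24lo cells by limma, 6 had an unadjusted p under 0.05 and 11.9% of all probe sets were called. Defa39 was 7079 and 6293, below the untreated 11990 and 10932 (-0.78 ± 0.26, adjusted p = 0.0602), and Pla2g2a was 943 and 734 (-1.19 ± 0.42, adjusted p = 0.0686). Lyz1 1439426_x_at differed by -0.68 ± 0.27 (adjusted p = 0.0991) and was called after quantile normalization at -0.55 (adjusted p = 0.0324). Lyz2 was 9969 and 6926, both above the untreated 6923 and 5083, and differed by 0.49 ± 0.28 (adjusted p = 0.25). The macrophage and monocyte sum was 5582 to 6290 there, and that of T cell markers 4806 to 5975, and their part in Lyz2 was not tested.

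Apart from doxorubicin, the Mptx1 result in CD24lo cells depended on a single untreated array. Without CD24lo untreated replicate 2, the lower of the pair, it was called lower in CD24lo cells after Lgr5 ablation at -3.45 (adjusted p = 0.00161), after irradiation at -2.56 (adjusted p = 0.00647) and with NICD at -2.42 (adjusted p = 0.00875). With both arrays the values were -2.40, -1.50 and -1.36, and none passed.

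In CD24hi cells with NICD 0 of the 13 probe sets passed by limma, 2 had an unadjusted p under 0.05 and 5.39% of all probe sets were called. The arrays of this group were far apart. Lyz1 1436996_x_at was 20133 and 46612, Ang4 1438364_x_at 20375 and 48040, and Itln1 15988 and 40031. With replicate 2 as the only NICD array the differences were 0.999 for Lyz1 1436996_x_at, 1.234 for Ang4 1438364_x_at and 1.035 for Itln1. Defa31 went the other way there, at -2.302. With centring on the 50 brightest other probe sets, which moved the median of all probe sets from -0.02 to -0.54, the difference of Lyz1 1436996_x_at went from 0.39 to -0.12 and that of Itln1 from 0.37 to -0.14. On that second array Lyz1 stood at 1.22 times the mean of the 50 brightest other probe sets, within the 0.596 to 1.29 of the other 19 arrays, while Ang4 1438364_x_at stood at 1.26 times, above the 0.453 to 1.09 of the others. The difference between the fractions in the effect of NICD gave 0 calls by limma among the 13 with all arrays. Of the 13, 8 had an unadjusted p under 0.05, and 1.67% of all probe sets were called. Without CD24hi NICD replicate 1 this difference was 1.582 for Lyz1 1436996_x_at, 1.671 for Ang4 1438364_x_at and -2.552 for Defa31. The same test for Lgr5 ablation and for irradiation gave 0 calls by limma among the 13, with 1 and 0 at an unadjusted p under 0.05 and 0.00444% and 0% of all probe sets called.

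**Figure D5:**
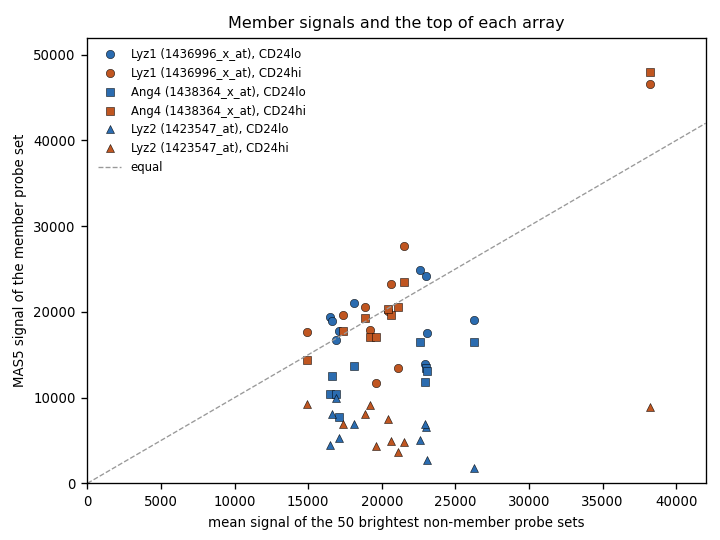
Signal of a Lyz1, an Ang4 and the Lyz2 probe set on each of the 20 sorted arrays against the mean signal of the 50 brightest other probe sets of that array, both on linear axes (blue CD24lo, orange CD24hi, dashed line equal values). CD24hi NICD replicate 2 stands alone at 38203, and Lyz1 lies near the line on most arrays while Lyz2 lies below it.

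Other genes known from Paneth cells, a list of 19 genes tested through 35 probe sets, were set beside the 13. In the average over conditions 27 of the 35 were higher and 1 lower in CD24hi cells, with a median of 1.63, and the list holds Cd24a, the sorting marker. In CD24lo cells after doxorubicin 14 of the 35 fell and 0 rose, with a median of -0.74. Pla2g2f, a further secreted phospholipase gene, changed by -3.37 and -2.88 at its 2 probe sets (adjusted p = 0.000303 and 0.00416). In CD24hi cells 0 of the 35 passed after doxorubicin, and after Lgr5 ablation 6 fell in CD24lo and 2 in CD24hi cells.

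Other antimicrobial genes of gut epithelium, 12 genes through 19 probe sets, did not move in 1 direction. In the average over conditions 9 were higher in CD24hi cells, among them Defb1, a beta-defensin (3.03 ± 0.20, adjusted p = 2.25e-09), and 8 lower, among them the lectin-family genes Reg1 (-2.60 ± 0.33, adjusted p = 5.64e-06) and Reg3a (-2.44 ± 0.21, adjusted p = 6.36e-08). In CD24lo cells after doxorubicin 3 were higher and 2 lower. Reg3g, a lectin that acts on Gram-positive bacteria, fell by 2.58 (adjusted p = 7.73e-05), while Reg1 was higher by 2.70 ± 0.73 (adjusted p = 0.0232).

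The genes most like each member over the 20 arrays, by Pearson correlation of the log2 signals, are given as a description, since arrays share fraction, condition and scaling. Mmp7 and Defa39 shared Pla2g2f (0.942 and 0.945) and Pglyrp1, a peptidoglycan recognition protein (0.934 and 0.913), among their 3 most alike genes. Pla2g2a was most like A4gnt (0.977), Msi1 (0.970) and Lrig1 (0.966). Lyz1 was most like Sharpin (0.913), Ang4 like Pabpc1 (0.934), Itln1 like Actn1 (0.897), Lyz2 like Nop10 (0.864) and Mptx1 like Terf2 (0.817). Defa3 and Defa31 were most like Etf1 (0.862) and Dcun1d1 (0.888), at dim signals. Among the members Mmp7 correlated with Defa39 at 0.923 and with Pla2g2a at 0.901, and with the bright Lyz1 probe sets at 0.339 and 0.136.

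Whole intestine gave a single array and so no test. Mmp7 was 625 there and Pla2g2a 197, below all 20 sorted arrays, as were Mptx1 at 592, Itln1 at 5571, Defa3 at 13.1 and Ang4 at 1817 and 1963. Lyz1, in contrast, was 14571 by 1436996_x_at, above 3 of the 20 sorted arrays, and 14889 by 1439426_x_at, above 7. Such places depend on the scaling, since this array had a median of 62.7 and a mean of its 50 brightest other probe sets of 29326. Relative to that mean, 1436996_x_at was 0.497, below the 0.596 to 1.288 of the sorted arrays. By that measure 1439426_x_at was 0.508, within their 0.45 to 1.054. Lyz2 was 3553 and Defa39 2239, each above 2 of the sorted arrays, which were the doxorubicin-treated CD24lo arrays. The probe set of Defa30 and Defa24 was 9858, above 13 of the 20 sorted arrays.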

How the data were processed

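Signals were those of 21 Affymetrix arrays of mouse small intestine. Per the labels, biotinylated cDNA was made with a GeneChip Pico kit from 0.8 ng of total RNA. The deposited table held linear signal intensity per probe set for 45101 probe sets, for which the submitters' processing notes name MAS5 as the authors' method; its version, and the steps before it, are not given in the sources used here. Detection calls were not used here. Probe sets were named through the platform annotation, where 34958 carried 1 symbol, 932 several and 9211 none.

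Signals were transformed as log2(signal + 16), without further scaling. Probe sets above their array's median on at least 2 of the 20 sorted arrays were kept, which left 22531 probe sets of 11854 genes, all 13 of the antimicrobial genes among them. A mean for each of 10 groups was fitted with limma 3.58.1 in R 4.3.3, with moderated variances that follow the mean and 10 residual degrees of freedom. P-values were two-sided and adjusted with Benjamini-Hochberg over all kept probe sets of each of the 14 comparisons, at 0.05. Errors are standard errors of the fit, and intervals are at 95%. A fold is on the log2(signal + 16) scale and understates the change of dim genes. For arrays, their number limits the precision.

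The genes and lists were chosen with earlier results of these data known. All 13 probe sets are reported whatever their result. From each other list up to 4 probe sets past the threshold with the largest difference could be named, and for each gene the 3 most alike genes. Lists of other Paneth cell genes, other antimicrobial genes, and markers of goblet cells, enterocytes, stem cells, tuft cells, enteroendocrine cells, macrophages and monocytes, neutrophils, T cells and epithelium in general were used; of a list of 14 further alpha-defensin genes 0 had a probe set with 1 symbol. After doxorubicin in CD24lo cells 1 of 7 enteroendocrine probe sets fell, and 0 of 13 tuft cell and 0 of 9 general epithelial ones passed. Alternatives were other pseudocounts, scalings, filters, variance settings, 1 probe set a gene, a replicate block and leaving out each array. Probe sets with several symbols, and centring on the brightest probe sets without CD24hi NICD replicate 2, were added after seeing the data. The labels do not say that replicate numbers pair the arrays, and the main fit did not pair them.

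The fit was tested on simulated data for doxorubicin in CD24lo cells with 22531 probe sets, where it recovered 35.8%, 86.6% and 93.9% of log2 changes of 1, 2 and 3, with 6 false among 150 calls. The noise was independent between probe sets, and 67, 67 and 66 probe sets were changed by these sizes. In the real comparison 12.4% of probe sets were called, so these rates need not hold there.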

Additional observations from a re-analysis of the deposited data

Results flagged for a closer look

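The difference between CD24hi and CD24lo cells in the effect of doxorubicin on Mmp7 was 2.32 on the log2(signal + 16) scale by a test of the difference itself (adjusted p = 0.0441, limma). Mmp7 was lower after doxorubicin in CD24lo cells, at -2.39, and differed by -0.07 in CD24hi cells. Its signal lay above the 99th percentile of the array on 18 of the 20 sorted arrays. The part of compressed signal in this difference was not tested. The call was lost without any 1 of the 8 arrays, with adjusted p from 0.0658 to 0.33.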

How the results depend on the processing

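No call of the 13 probe sets changed its direction under any alternative. The number of the 13 past the threshold for the difference between fractions after doxorubicin was 1, and it was 2 with a pseudocount of 1 or 64, quantile normalization, the stricter filter, 1 probe set a gene, robust moderation or probe sets with several symbols added, and 0 with 75th percentile centring, no filter, no variance trend or the replicate block. Residuals of arrays sharing a replicate number correlated at -0.379 to 0.363 over 45 pairs of groups. Between the fractions of a condition they correlated at 0.342 in untreated, 0.363 in Lgr5-ablated, 0.057 in irradiated, -0.085 in doxorubicin-treated and -0.151 in NICD mice. Whether the numbers pair the fractions was not settled by these values. The count for the difference between fractions after doxorubicin was the 1 count that the replicate block moved by over 1.5 times. For CD24hi against CD24lo in untreated mice it was 2, with 4 after quantile normalization and 1 with 75th percentile centring, no filter, 1 probe set a gene or no variance trend. With NICD in CD24lo cells it was 0, and 1 after quantile normalization. After doxorubicin in CD24hi cells it was 0, with 2 after quantile normalization and 1 with centring on the 50 brightest. After Lgr5 ablation in CD24lo cells it was 1, and 0 with that centring, no filter or no variance trend. In untreated mice the called Ang4 1440832_at was itself left out with 1 probe set a gene, where the probe set of highest mean was kept. The cause was not tested for the other changes. Without 1 array at a time the counts ran from 8 to 9 for the average between fractions, 1 to 2 in untreated mice, 4 to 6 after doxorubicin, 0 to 2 after irradiation, 0 to 1 after Lgr5 ablation and 0 to 1 with NICD in CD24lo cells, and 0 to 8 with NICD in CD24hi cells. For the differences between fractions they ran from 0 to 0 after doxorubicin and 0 to 8 with NICD. The remaining comparisons stayed at 0. The share of all probe sets called was not counted in the fits without 1 array, so these counts cannot be set against it.

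The scaling moved the split of calls. After quantile normalization the average between fractions had 8 of the 13 higher and 1 lower (Lyz1 1439426_x_at, -0.19, adjusted p = 0.0312). Centring on the 50 brightest moved the median of all probe sets by -0.27 after doxorubicin and by 0.27 after Lgr5 ablation in CD24lo cells. Of all called probe sets the share called higher went from 40.3% to 17.3% in the former and from 50% to 65.2% in the latter. Signal near the top of the scale may limit what Lyz1, Itln1, Ang4 and Mmp7 can show, which was not tested. Signal near the array median limits Defa3 and Defa31.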
